A study of Mus musculus with 4 samples.

Results

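The claudin family was followed through 6 of its genes, *Cldn1*, *Cldn3*, *Cldn4*, *Cldn5*, *Cldn7* and *Cldn10*, across the cells of the mouse submandibular and sublingual glands. The 6 genes were chosen by symbol, out of 34 genes with a claudin symbol and 32285 genes listed in the count matrix. Single cells came from freshly taken glands of wild-type (WT) female C57BL/6N mice of 6 to 8 weeks, at physiological status and with no treatment. The labels name 2 mice and list 4 samples, and the methods of the paper name another number of mice. The barcodes of the matrix carry 1 suffix, so cells could be traced neither to their animal nor to their gland. The whole matrix therefore counts as 1 sample without a replicate check, no test between samples was made, and every interval given here covers counting error alone.

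Claudins are membrane proteins that join neighbouring epithelial or endothelial cells at the tight junction. They decide which ions and how much water can pass between the cells. Some seal this path, and others, such as claudin-10, form channels for small ions. In salivary glands the acini secrete a primary saliva rich in sodium and chloride, and the ducts then take up salt while letting little water follow.

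The 15707 cells had a median of 2608 UMIs (unique molecular identifiers, each marking 1 captured RNA molecule) and 689 genes. They fell into 23 clusters, of which 18, with 63.6% of the cells, could be named from marker genes. The 12 populations so named are written as "-like", because they rest on markers rather than on a deposited annotation. There were 2237 serous acinar-like, 525 Dcpp acinar-like and 323 mucous acinar-like cells. The intercalated duct-like cluster, led by *Smgc*, held 233 cells. It also met 3 of the 12 serous acinar markers and 5 of the 10 general luminal duct markers. The luminal duct-like cells were 571 Slc13a2 duct-like, 1047 Ascl3 duct-like and 1267 kallikrein duct-like cells, 2885 together. The intercalated duct-like and Slc13a2 duct-like names rest on 3 of 6 markers each. The Slc13a2 duct-like cluster also met 5 of the 6 intercalated duct markers (*Smgc*, *Gstt1*, *Kit*, *Nkd2*, *Clu*), more than the cluster named for them (*Smgc*, *Gstt1*, *Clu*). *Nkd2* was found in 27.5% of Slc13a2 duct-like and 6.87% of intercalated duct-like cells, and *Smgc* in 37.3% and 100%. The 2 clusters are therefore not a clean division of intercalated from other ducts, and differences between them are those of clusters led by *Smgc* and by *Slc13a2*. A further 177 cells were basal duct-like, on 5 of 8 markers (*Krt5*, *Krt14*, *Krt15*, *Krt17*, *Dapl1*). *Trp63* was found in 24.86% of them, *Col17a1* in 16.95% and *Aqp3* in 0%. This cluster also met 9 of the 10 general luminal duct markers, so it is not a clean division of basal from luminal cells. The endothelial-like cluster held 719 cells and met 10 of 13 markers, *Pecam1*, *Cdh5* and *Kdr* among them. Fibroblast-like, myeloid-like and lymphoid-like cells should lack epithelial claudins, and what they held of them is given beside the results as background. A group of 3 clusters with 5573 cells stayed unnamed because their median was below 500 genes.

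The 2 serous acinar-like clusters had a median of 24764 UMIs per cell against 2716 in luminal duct-like cells. Together the 20 most abundant genes of the matrix, led by *Mucl2*, took 92.0% of the UMIs of serous acinar-like cells, 90.3% of Dcpp acinar-like and 76.7% of mucous acinar-like cells, but 34.1% of luminal duct-like cells. A level per 10000 UMIs is thus pressed down in acinar cells for most other genes. The same holds for a share of cells after each cell is thinned to an equal number of UMIs. For this reason each claudin is described on several scales, and first by its share of the UMIs of the 6 genes, which does not depend on the total. One of the serous acinar-like clusters (989 cells) was led by haemoglobin genes, and 10 serous acinar-like cells had over 10% of their UMIs on these genes.

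Positions are given on build GRCm38 with the GENCODE M21 annotation. *Cldn4* (chromosome 5, 134945119 to 134946934, minus strand) and *Cldn3* (chromosome 5, 134986214 to 134987472, plus strand) are neighbours with 1 exon each, 39.3 kb apart with 0 annotated genes between them. *Cldn5* (chromosome 16, 18776847 to 18778262, plus strand) also has 1 exon. *Cldn1* (chromosome 16, 26356642 to 26371841, minus strand) has 4 exons, and *Cldn7* (chromosome 11, 69964779 to 69967885, plus strand) has 3 to 5 in its coding transcripts. *Cldn10* (chromosome 14, 118787908 to 118875489, plus strand) has 2 starts in RefSeq. Its isoforms differ in their first exon, so counts from 3′ ends do not tell them apart. An antisense gene, *Wbscr25*, overlaps *Cldn3* and had 22 UMIs in the whole matrix. None of the 90-base windows in the last 500 bases of the members' coding transcripts occurred in a transcript of another gene.

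The 250 bases before the start are shown for *Cldn3*, *Cldn4*, *Cldn7*, *Cldn10* and *Cldn5*. Of the claudin UMIs, *Cldn3*, *Cldn4* and *Cldn7* made up the bulk in the ducts and *Cldn10* in the acini, and *Cldn5* stood out in the endothelium. The windows are RefSeq sequences of build GRCm38.p6, written 5′ to 3′ on the strand of the gene. For *Cldn7* and *Cldn10* the first of 2 annotated starts is given, since the window of the other start overlaps an annotated exon, and the counts do not say which start was used. Capitals mark 5 motifs searched on both strands: AACNNGTT of the Grainyhead-like factors, TGANTCA of AP-1, the GC box GGGCGG, the E-box CACCTG and the TATA box TATAAA.
*Cldn3* (chr5:134985964-134986213, plus strand): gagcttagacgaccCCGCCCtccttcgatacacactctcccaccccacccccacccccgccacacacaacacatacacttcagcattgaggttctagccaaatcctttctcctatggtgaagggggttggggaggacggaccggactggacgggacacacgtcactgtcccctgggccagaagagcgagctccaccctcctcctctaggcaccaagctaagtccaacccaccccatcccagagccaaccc
*Cldn4* (chr5:134946935-134947184, minus strand): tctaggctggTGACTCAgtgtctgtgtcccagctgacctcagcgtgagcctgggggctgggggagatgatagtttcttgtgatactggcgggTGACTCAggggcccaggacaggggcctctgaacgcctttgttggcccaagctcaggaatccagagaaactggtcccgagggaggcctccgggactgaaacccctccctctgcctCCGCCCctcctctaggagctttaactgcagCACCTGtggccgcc
*Cldn7* (chr11:69964529-69964778, plus strand): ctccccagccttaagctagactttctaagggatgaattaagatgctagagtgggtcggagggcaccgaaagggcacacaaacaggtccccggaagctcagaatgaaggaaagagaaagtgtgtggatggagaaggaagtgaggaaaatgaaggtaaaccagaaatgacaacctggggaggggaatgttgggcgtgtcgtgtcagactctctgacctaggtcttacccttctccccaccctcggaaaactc
*Cldn10* (chr14:118787621-118787870, plus strand): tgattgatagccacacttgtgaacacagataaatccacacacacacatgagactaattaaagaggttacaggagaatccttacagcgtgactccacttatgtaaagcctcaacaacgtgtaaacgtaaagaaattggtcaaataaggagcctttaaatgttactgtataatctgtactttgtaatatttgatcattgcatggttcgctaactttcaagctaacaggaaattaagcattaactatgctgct
*Cldn5* (chr16:18776597-18776846, plus strand): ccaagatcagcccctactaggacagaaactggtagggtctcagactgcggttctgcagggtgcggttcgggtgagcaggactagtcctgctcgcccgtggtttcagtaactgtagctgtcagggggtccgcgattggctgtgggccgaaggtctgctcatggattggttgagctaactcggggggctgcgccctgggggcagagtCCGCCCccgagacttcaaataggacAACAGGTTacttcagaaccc

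The *Cldn4* window held 2 AP-1 matches, 1 GC box and 1 E-box. AP-1 letters occurred in 6.75% of all 32851 RefSeq windows of this length, GC boxes in 32.7% and the E-box in 17.2%. The neighbouring *Cldn3* window held 1 GC box. The *Cldn5* window held 1 GC box and 1 match to AACNNGTT, which 3.64% of all windows hold. No match was found in the first windows of *Cldn7* and *Cldn10*, and none of the windows shown held the letters TATAAA, found in 12.4% of all windows. The G and C content was 60.8% for *Cldn3*, 62.0% for *Cldn4*, 59.6% for *Cldn5*, 51.2% for *Cldn7* and 36.0% for *Cldn10*, against a median of 52.4%. The windows of the second starts, not shown, differed: that of *Cldn10* had 72.4% and 3 GC boxes, and that of *Cldn7* 60.0%, 1 GC box and 2 E-boxes. These matches describe the letters alone.

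Acinar-like and duct-like cells differed in the makeup of their claudin UMIs. A share depends on the other members as well, and UMIs per cell are compared further below. Of the UMIs of the 6 genes in serous acinar-like cells, 77.0% (95% interval 76.3% to 77.8%, 12453 UMIs) belonged to *Cldn10*. The share was 72.8% in Dcpp acinar-like and 63.1% in mucous acinar-like cells. In kallikrein duct-like cells it was 2.46% (2.05% to 2.91%, 5253 UMIs) and in Ascl3 duct-like cells 2.14%. There *Cldn3*, *Cldn4* and *Cldn7* made up the bulk of the claudin UMIs. A 3′ library counts each captured RNA once whatever its length, so UMIs of different genes were set side by side without a length correction. A difference in capture between the genes was not tested.

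**Figure D1:**
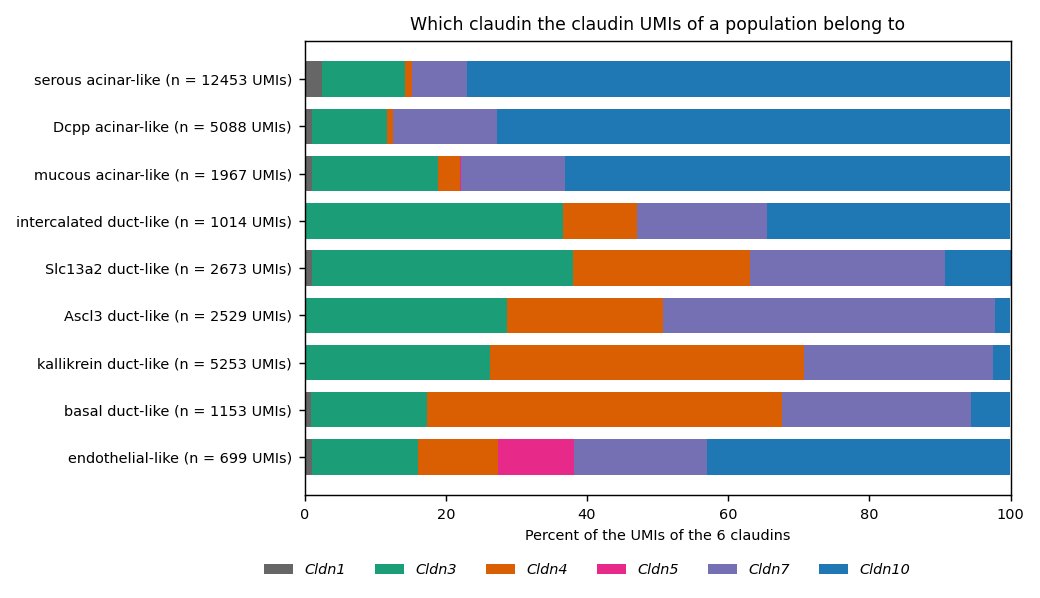
Share of the UMIs of the 6 claudins that belongs to each gene (x axis, percent) in 9 named populations (y axis, with the number of claudin UMIs). *Cldn10* fills 77.0% of the bar of serous acinar-like cells and 2.46% of that of kallikrein duct-like cells, and *Cldn5* is visible in endothelial-like cells at 10.7%.

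The duct populations also differed from each other in their leading claudin. *Cldn4* led in kallikrein duct-like cells with 44.4% (43.0% to 45.8%) and in basal duct-like cells with 50.3% (47.4% to 53.2%). *Cldn7* led in Ascl3 duct-like cells with 47.1% (45.2% to 49.1%). *Cldn3* led in Slc13a2 duct-like cells with 37.0% (35.2% to 38.9%). Intercalated duct-like cells held *Cldn3* (36.4%) and *Cldn10* (34.5%) at shares whose intervals overlapped. Over the clustering and filtering alternatives, the *Cldn10* share ran from 71.9% to 77.3% in serous acinar-like and from 1.39% to 3.41% in kallikrein duct-like cells. That of *Cldn4* in kallikrein duct-like cells ran from 43.7% to 46.8%, and that of *Cldn7* in Ascl3 duct-like cells from 38.6% to 47.6%. At resolution 0.3 the Ascl3 duct-like cells were 1585, with *Cldn7* at 38.6% and *Cldn4* at 32.1%. A kallikrein duct-like cluster of 484 cells also met 6 of the 7 Ascl3 duct markers.

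*Cldn10*, whose product forms paracellular ion channels, was the claudin of the acini. Its level was 1.53 UMIs per 10000 (1.50 to 1.56) in serous acinar-like cells, 2.99 (2.89 to 3.09) in Dcpp acinar-like and 3.25 (3.07 to 3.43) in mucous acinar-like cells. Intercalated duct-like cells reached 3.77 (3.39 to 4.19), which overlapped the mucous acinar-like value. Their cluster also met 3 serous acinar markers, and the part of acinar transcripts in this value was not tested. Mucous acinar-like and Dcpp acinar-like cells, next to each other in this order, also overlapped. Within the serous acinar-like cells, the cluster led by haemoglobin genes had 1.38 and the other cluster 1.64. Slc13a2 duct-like cells stood at 1.08 (0.946 to 1.22), which overlapped the background in fibroblast-like cells (0.959, 0.814 to 1.12). Basal duct-like cells were below that background at 0.573 (0.441 to 0.732). Kallikrein duct-like (0.257) and Ascl3 duct-like cells (0.187) did not differ beyond their intervals from lymphoid-like cells (0.264), which are not expected to make this claudin.

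Per cell the contrast was wider. Serous acinar-like cells held 4.29 *Cldn10* UMIs per cell, Dcpp acinar-like cells 7.05 and mucous acinar-like cells, the highest of the acini per 10000, 3.85, the lowest of the 3. This compared with 0.149 in luminal duct-like and 0.0564 in lymphoid-like cells. A *Cldn10* UMI was found in 83.3% of serous acinar-like cells and 87.6% of Dcpp acinar-like cells, at median depths of 24764 and 24344 UMIs. With every cell thinned to 1000 UMIs these shares were 14.5% and 25%. Thinned shares were 33.9% in intercalated duct-like cells, 2.60% in kallikrein duct-like and 1.53% in Ascl3 duct-like cells, against 2.33% in lymphoid-like cells. The values of kallikrein duct-like and Ascl3 duct-like cells were thus read as background. Cells that should lack the gene differed among themselves, with 0.959 *Cldn10* UMIs per 10000 in fibroblast-like and 0.207 in myeloid-like cells. The 20 most abundant genes took 55.3% and 17% of the UMIs of these 2 populations, and their part in the *Cldn10* levels was not tested.

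**Figure D2:**
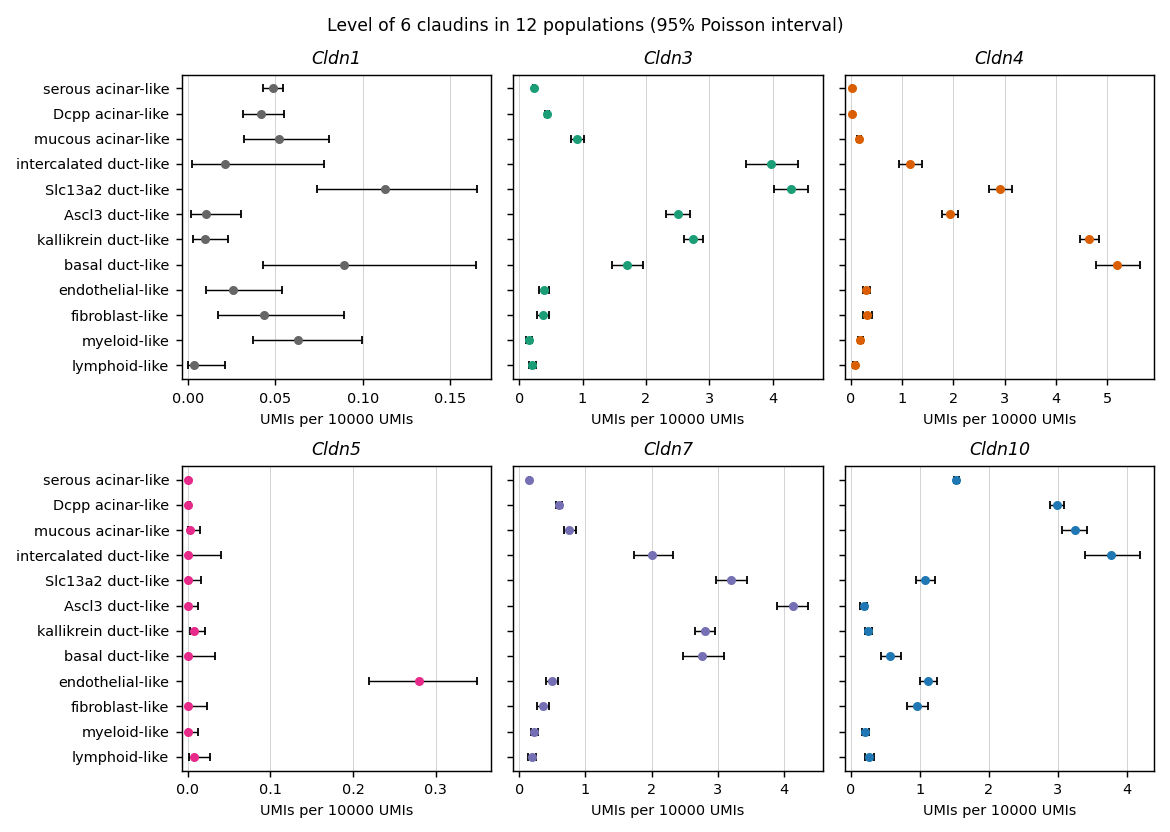
Level of each claudin (x axis, UMIs per 10000 UMIs, a scale of its own in each panel) in 12 populations (y axis), with exact Poisson 95% intervals as bars. *Cldn3*, *Cldn4* and *Cldn7* are high in the duct-like populations, *Cldn10* in acinar-like and intercalated duct-like cells, and *Cldn5* stands out in endothelial-like cells at 0.279.

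*Cldn4*, a claudin that limits sodium passage in several epithelia, was the leading claudin of basal duct-like and kallikrein duct-like cells. Its level was highest in basal duct-like cells, at 5.19 UMIs per 10000 (4.78 to 5.63), and in kallikrein duct-like cells, at 4.65 (4.46 to 4.84), whose intervals overlapped. Lower levels with separate intervals followed, 2.92 in Slc13a2 duct-like, 1.93 in Ascl3 duct-like and 1.15 in intercalated duct-like cells. The 2 kallikrein duct-like clusters had 5.08 and 4.21. Acinar-like cells were far below these, at 0.0203 in serous, 0.0323 in Dcpp and 0.165 in mucous acinar-like cells. Fibroblast-like cells had 0.316.

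In serous acinar-like cells a *Cldn4* UMI was found in 5.10% of cells, and in 0.402% of cells thinned to 1000 UMIs. Lymphoid-like cells, at a median depth of 1869 UMIs, gave 1.29% and 0.644%. The thinned share was not above that of lymphoid-like cells. Thinning keeps the part of the 20 most abundant genes, 92.0% of the UMIs in serous acinar-like and 20.3% in lymphoid-like cells. The thinned share is thus pressed down in serous acinar-like cells and does not decide whether *Cldn4* lay over background there. In UMIs per cell the values were 0.0568 in serous acinar-like and 0.0169 in lymphoid-like cells. Kallikrein duct-like cells held 1.84 *Cldn4* UMIs per cell, and 32.0% of them had one after thinning.

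*Cldn3* and *Cldn7* are both found in many simple epithelia. Per 10000 UMIs, their higher levels were in the duct-like populations and the lower ones in the acini. *Cldn3* was highest in Slc13a2 duct-like (4.29 UMIs per 10000, 4.03 to 4.57) and intercalated duct-like cells (3.98, 3.58 to 4.41), which overlapped. Kallikrein duct-like (2.75) and Ascl3 duct-like cells (2.50) overlapped with each other, and basal duct-like cells followed at 1.70. *Cldn7* was highest in Ascl3 duct-like cells (4.13, 3.90 to 4.37), cells that express the acid-secreting cell regulator *Foxi1*. Slc13a2 duct-like cells had 3.20, kallikrein duct-like 2.80 and basal duct-like cells 2.77, of which the last 2 overlapped. Thinned to 1000 UMIs, 32.1% of Ascl3 duct-like cells had a *Cldn7* UMI against 1.29% of lymphoid-like cells.

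Within the acini both genes had their lowest level in serous and their highest in mucous acinar-like cells. *Cldn3* was 0.234 UMIs per 10000 in serous, 0.439 in Dcpp and 0.917 in mucous acinar-like cells, with separate intervals. *Cldn7* was 0.154, 0.605 and 0.758, with separate intervals as well. Per cell the order was less clear for *Cldn3*, at 0.653, 1.04 and 1.09 UMIs, and *Cldn7* was highest in Dcpp acinar-like cells (1.43, against 0.432 and 0.898). Cells that should lack both genes had levels in the serous range, with 0.371 of *Cldn3* and 0.353 of *Cldn7* in fibroblast-like and 0.207 and 0.189 in lymphoid-like cells. After thinning, the *Cldn3* share of serous acinar-like cells (2.59%, 1.98% to 3.34%) overlapped that of lymphoid-like cells (1.53%, 0.923% to 2.38%). The *Cldn7* share of serous acinar-like cells (1.61%, 1.13% to 2.22%) likewise overlapped that of lymphoid-like cells (1.29%, 0.738% to 2.08%). The thinned shares of serous acinar-like cells are pressed down, as for *Cldn4* above, so these overlaps do not decide on detection over background. Lymphoid-like cells held 0.0443 UMIs of *Cldn3* and 0.0403 of *Cldn7* per cell.

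**Figure D3:**
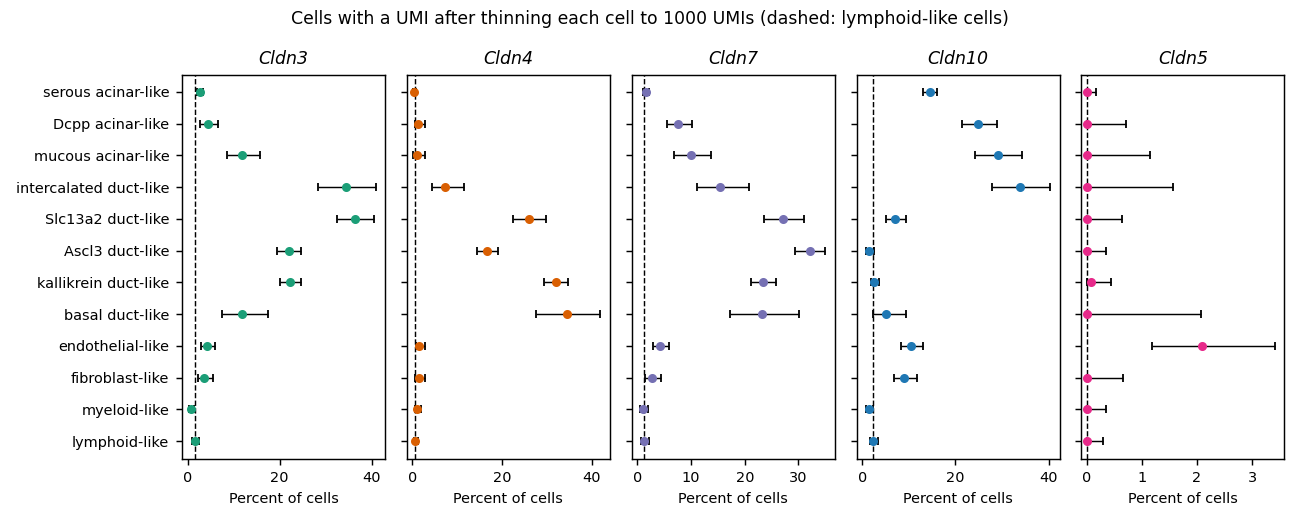
Share of cells with at least 1 UMI of a claudin (x axis, percent) in 12 populations (y axis) after each cell was thinned to 1000 UMIs, with exact binomial 95% intervals. The dashed line is the share in lymphoid-like cells, and *Cldn4* in serous acinar-like cells (0.402%) and *Cldn10* in Ascl3 duct-like cells (1.53%) lie below it.

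*Cldn1*, a barrier claudin of skin and other stratified epithelia, was scarce everywhere. Its highest levels were in Slc13a2 duct-like cells, with 26 UMIs and 0.113 per 10000 (0.0737 to 0.165), and in basal duct-like cells, with 10 UMIs and 0.0895 (0.0429 to 0.165). Kallikrein duct-like and Ascl3 duct-like cells had 5 and 3 UMIs, and neighbours in the order of the levels overlapped throughout. In UMIs per cell the acini came first: serous acinar-like cells held 304 UMIs, 0.136 per cell, against 0.0565 in basal duct-like and 0.0118 in luminal duct-like cells. A *Cldn1* UMI was found in 11.9% of serous acinar-like cells and in 0.0805% of lymphoid-like cells, at depths that differ as given above. Thinned to 1000 UMIs the shares were 0.536% (0.278% to 0.935%) and 0.0805% (0.00204% to 0.448%), with overlapping intervals. The thinned share of serous acinar-like cells is again pressed down.

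*Cldn5*, the main claudin of blood vessel endothelium, was found in few cells. Endothelial-like cells held 75 UMIs in 34 of 719 cells, a level of 0.279 per 10000 (0.220 to 0.350). Luminal duct-like cells held 4 UMIs, lymphoid-like and serous acinar-like cells 2 each, and mucous acinar-like cells 1. The other 7 populations had 0 UMIs, among them Dcpp acinar-like cells, where 0 of 525 cells, taking 3 counts as the limit, allows a share of cells with a *Cldn5* UMI of up to 0.571%. This limits detection and not expression. The unnamed cluster of smooth muscle markers (85 cells) had 6 *Cldn5* UMIs in 2 cells.

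The endothelial-like cluster also held cells with few genes and many acinar transcripts: its median was 609 genes, and 63.6% of its UMIs came from the 20 most abundant genes. At the finer clustering resolution of 0.8 a purer cluster of 285 cells with all 13 endothelial markers split off. There the *Cldn5* level was 0.774 per 10000 (0.600 to 0.983, 67 UMIs), and *Cldn10* was 0.566 in place of 1.12. The part of acinar transcripts in the endothelial-like *Cldn10* value was not tested. A *Cldn5* UMI was found in 9.12% of these 285 cells, and *Cldn5* was 28.6% of their claudin UMIs.

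Luminal duct-like cells were next compared with each kind of acinar-like cell. For the level per 10000, the log2 ratio to serous acinar-like cells was 7.42 for *Cldn4* (7.17 to 7.69), 4.40 for *Cldn7* (4.30 to 4.51), 3.70 for *Cldn3* (3.61 to 3.79) and -1.86 for *Cldn10* (-2.00 to -1.72). *Cldn1* was at -0.54 (-1.10 to -0.03). Of the 5 members with at least 20 UMIs in this comparison, 3 were at least 2-fold higher in luminal duct-like cells. The background on this scale was 95.8% of 11756 genes, a share that the 3 of 5 members did not exceed. Only 1.22% of the genes were at least 2-fold lower, *Cldn10* among them.

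**Figure D4:**
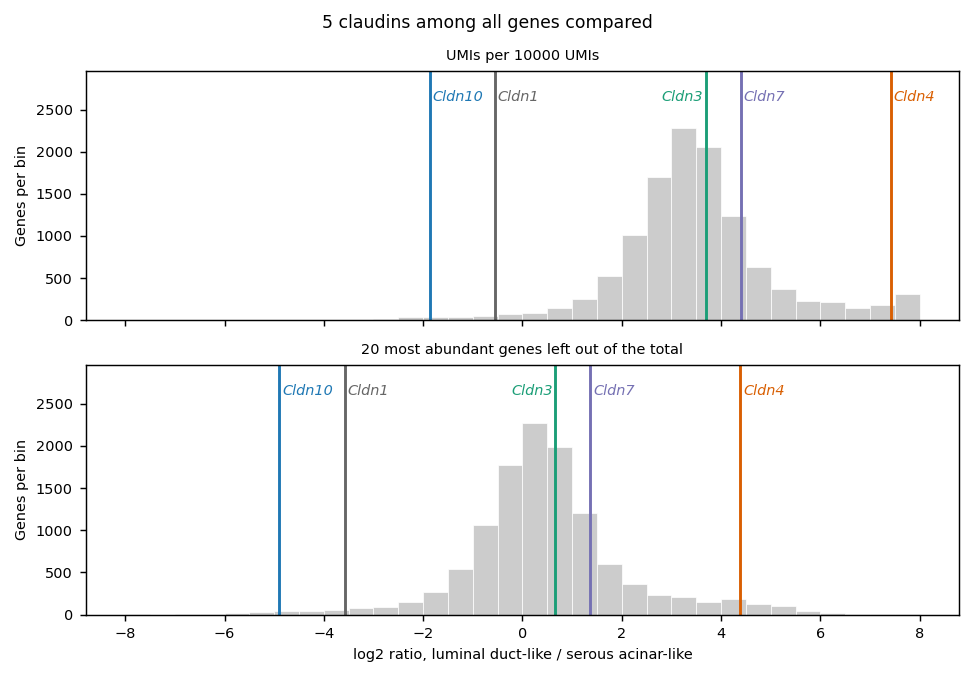
Number of genes (y axis) by log2 ratio of luminal duct-like to serous acinar-like cells (x axis, bins of 0.5, end bins hold all values beyond, genes at 0 in one population not drawn), for the level per 10000 (top) and with the 20 most abundant genes left out of the total (bottom). *Cldn3* and *Cldn7* lie within the bulk of the genes, *Cldn4* (7.42 and 4.39) to the right of it and *Cldn10* (-1.86 and -4.89) to the left.

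With the 20 most abundant genes left out of the total, the ratios to serous acinar-like cells were 4.39 for *Cldn4*, 1.37 for *Cldn7*, 0.66 for *Cldn3*, -3.58 for *Cldn1* and -4.89 for *Cldn10*. On this scale 2 members were at least 2-fold higher, *Cldn4* and *Cldn7*, against 28.4% of the genes, and 2 were at least 2-fold lower, *Cldn1* and *Cldn10*, against 11.2%. The scale moved the median of all genes from 3.42 to 0.39. Relative to that median, a difference that is the same on each of the 3 scales, *Cldn4* was higher in the ducts by 4.00 on the log2 scale, *Cldn7* by 0.98 and *Cldn3* by 0.28. *Cldn1* stood at -3.96 and *Cldn10* at -5.28 relative to it.

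*Cldn4* was the highest and *Cldn10* the lowest of these ratios for the other acini as well. Per 10000 UMIs the log2 ratio to Dcpp acinar-like cells was 6.76 for *Cldn4*, 2.79 for *Cldn3*, 2.43 for *Cldn7* and -2.82 for *Cldn10*. Here 95.9% of 11247 genes were at least 2-fold higher and 0.969% lower. In UMIs per cell the *Cldn3* ratio was 0.05 (-0.08 to 0.18) and that of *Cldn7* turned to -0.30 (-0.42 to -0.19), whereas *Cldn4* kept 4.02 and *Cldn10* -5.56. Against mucous acinar-like cells the ratios per 10000 were 4.41 for *Cldn4*, 2.11 for *Cldn7*, 1.72 for *Cldn3* and -2.94 for *Cldn10*, beside 82.1% of 11213 genes at least 2-fold higher and 2.02% lower. Per cell *Cldn3* was at -0.02 (-0.18 to 0.14) and *Cldn4* at 2.66. The direction of *Cldn4* and of *Cldn10* held against all 3 kinds of acinar-like cells on all 3 scales. That of *Cldn7* turned against Dcpp acinar-like cells, and the interval of *Cldn3* included 0 against Dcpp and mucous acinar-like cells in UMIs per cell. *Cldn1* was at -0.33 against Dcpp and -0.65 against mucous acinar-like cells per 10000, with intervals that included 0, and at -3.07 and -2.39 per cell. Relative to the median of all genes, *Cldn4* was at 3.64 against Dcpp and 2.60 against mucous acinar-like cells, *Cldn10* at -5.94 and -4.75, *Cldn3* at -0.33 and -0.08, and *Cldn7* at -0.68 and 0.30.

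**Figure D5:**
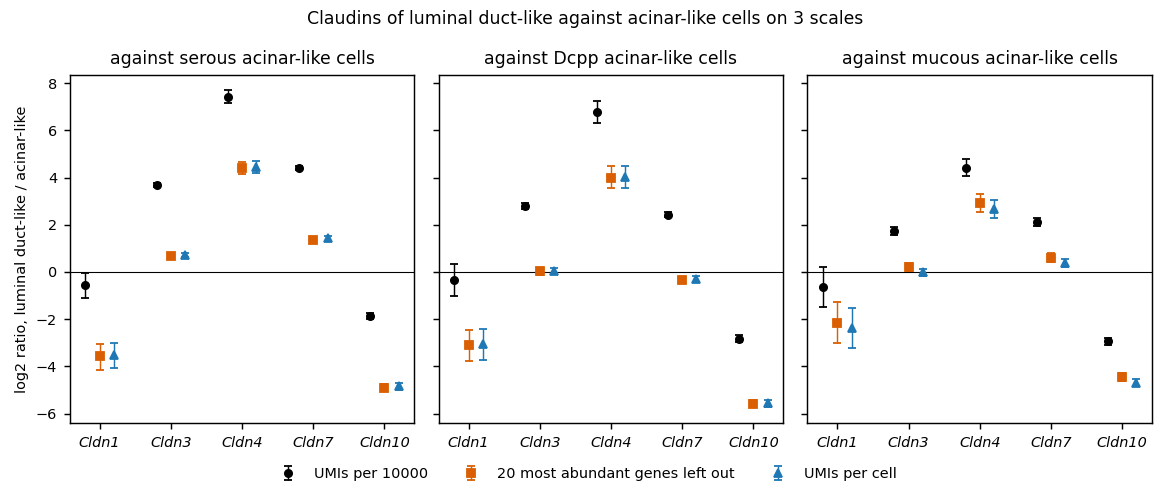
Log2 ratio of luminal duct-like to acinar-like cells (y axis) for 5 claudins (x axis) on 3 scales (UMIs per 10000, the same with the 20 most abundant genes left out, and UMIs per cell), with exact 95% intervals for counting error. *Cldn4* lies above and *Cldn10* below 0 in every panel and on every scale, and *Cldn7* falls below 0 against Dcpp acinar-like cells once the total or its abundant genes are set aside.

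Basal duct-like cells, which lie beneath the luminal cells of the large ducts, shared *Cldn4* as leading claudin with the kallikrein duct-like cells. Relative to luminal duct-like cells the log2 ratio of *Cldn1* was 1.43 (0.24 to 2.48), on 10 and 34 UMIs. Of the 34 UMIs, 26 were from Slc13a2 duct-like cells, whose own *Cldn1* level (0.113) was not below that of basal duct-like cells (0.0895). The log2 ratio was 0.57 (0.44 to 0.70) for *Cldn4*, -0.24 (-0.41 to -0.07) for *Cldn7* and -0.83 (-1.05 to -0.62) for *Cldn3*. *Cldn10* was at 0.44 (0.04 to 0.82). Of 5 members compared, *Cldn1* was at least 2-fold higher, where 11.5% of 11246 genes were, and 0 were at least 2-fold lower, where 11% (1232 genes) were. With the 20 abundant genes left out the *Cldn1* interval included 0 (1.14, -0.04 to 2.19) and *Cldn3* passed 2-fold lower at -1.11. In UMIs per cell *Cldn3* was at 0.00 (-0.22 to 0.22).

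The Slc13a2 duct-like cluster held cells with myoepithelial markers as well, with *Acta2* in 20.5% and *Cnn1* in 12.6% of its cells. At resolution 0.8 a myoepithelial-like cluster of 138 cells left it, with 12 *Cldn1* UMIs and a level of 0.163 per 10000 (0.0842 to 0.285). The 413 Slc13a2 duct-like cells that remained had 14 *Cldn1* UMIs, at 0.104 (0.0569 to 0.175), and 5.35 of *Cldn3*, 3.06 of *Cldn4* and 3.87 of *Cldn7* per 10000. The log2 ratio of *Cldn1* in basal against luminal duct-like cells was then 1.96 (0.72 to 3.10). The Slc13a2 duct-like level of 0.104 was still not below the basal duct-like level, 0.0917 (0.0440 to 0.169) at this resolution.

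Endothelial-like cells were compared with luminal duct-like cells. The log2 ratio of *Cldn5* was 6.16 (4.74 to 8.07), on 75 and 4 UMIs, and 7.92 (6.31 to 10.23) at resolution 0.8. The epithelial *Cldn3*, *Cldn4* and *Cldn7* were lower, at log2 ratios of -2.95, -3.55 and -2.74, and *Cldn10* was at 1.41 beside the acinar transcripts described above. Thus 2 of 6 members were at least 2-fold higher, where 9.07% of 11640 genes were, and 3 were at least 2-fold lower, where 45.7% were. At resolution 0.8 *Cldn10* was no longer past 2-fold, at a log2 ratio of 0.80 (0.33 to 1.24), which left *Cldn5* alone. This setting was read for *Cldn10* after the data were seen.

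Single cells were examined for the claudins they held together. In intercalated duct-like cells, *Cldn3* and *Cldn10* were each found in 74.2% of cells, and both in 127 of 233 cells. This is 54.5%, against 55.1% for the product of the 2 shares. With each gene in 74.2% of cells a full split between separate cells was not possible, and these values do not decide on a partial one. In kallikrein duct-like cells, *Cldn3* and *Cldn4* were found together in 40.5% of cells (product of shares 35.3%) and *Cldn4* and *Cldn7* in 41.0% (35.9%). Thinned to 1000 UMIs these values were 9.6% (7.1%) and 8.6% (7.5%). The kallikrein duct-like clusters had median depths of 2651 and 4754 UMIs. No interval was made for these differences, and the part of depth in them was not tested. In these cells *Cldn3* and *Cldn10* occurred together in 3.31% (product 4.01%). Thinned to 1000 UMIs, 65.7% of intercalated duct-like, 57.5% of kallikrein duct-like and 18.9% of serous acinar-like cells had at least 1 member, against 5.56% of lymphoid-like cells.

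The 6 genes held 91.7% of the UMIs of all 34 genes with a claudin symbol. Of the other 28 genes, 15 had 0 UMIs in the matrix, 8 had fewer than 20 in every named population and 5 passed that number. *Cldn8*, a claudin of sodium-reabsorbing tubules, was the most abundant with 2149 UMIs. Per 10000 UMIs it was highest in Ascl3 duct-like cells, at 1.71 (1.57 to 1.87). Slc13a2 duct-like cells had 1.12, kallikrein duct-like 0.987 and basal duct-like cells 0.922. Serous acinar-like cells had 0.0340 and lymphoid-like cells 0.0453, on the scale where 95.8% of genes were at least 2-fold higher in luminal duct-like than serous acinar-like cells. In UMIs per cell luminal duct-like cells held 0.433, mucous acinar-like 0.155, serous acinar-like 0.0952 and lymphoid-like cells 0.00966. The highest level of *Cldnd1* was 0.600 in basal duct-like cells, that of *Cldn12* 0.143 in Slc13a2 duct-like, that of *Cldn34c1* 0.0969 in Ascl3 duct-like and that of *Cldn23* 0.0518 in kallikrein duct-like cells.

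Other genes of the tight junction were compared in the same way. Of 20 genes of a tight junction list with enough UMIs, all 20 were at least 2-fold higher in luminal duct-like than in serous acinar-like cells per 10000, and 7 with the 20 abundant genes left out, beside the backgrounds of 95.8% and 28.4% above. Their median log2 ratio was 3.96 against 3.42 for all genes, and 0 were at least 2-fold lower on either scale. Against Dcpp acinar-like cells 20 of the 20 were at least 2-fold higher (95.9% of all genes), and 3 with the abundant genes left out (26.6%). Against mucous acinar-like cells these counts were 19 (82.1%) and 6 (21.9%). The strand protein *Ocln* had 0.248 UMIs per 10000 in luminal duct-like cells and the scaffold *Tjp1* 0.294. In basal duct-like cells the virus receptor and adhesion protein *Cxadr* was higher than in luminal duct-like cells (log2 ratio 1.82) and *Jam2*, a junctional adhesion molecule, lower (-2.35), the only 2 of 20 genes past 2-fold per 10000. Endothelial-like cells had *Jam3* at a log2 ratio of 6.59 (5.51 to 7.92) and *Jam2* at 1.26 relative to luminal duct-like cells, and 17 of 21 genes of the list at least 2-fold lower, where 45.7% of all genes were. With the abundant genes left out 11 of 21 were, where 16.9% of all genes were. Of the 8 adherens junction genes with enough UMIs, 8 were at least 2-fold higher in luminal duct-like than serous acinar-like cells, and of the 10 transcription and splicing regulators, 10 were, on the scale with the 95.8% background. With the abundant genes left out these counts were 7 of 8 and 6 of 10, where 28.4% of all genes were. Relative to luminal duct-like cells, 2 of 8 adherens genes (*Cdh3*, *Nectin1*) and 2 of 10 regulators (*Klf5*, *Trp63*) were at least 2-fold higher in basal duct-like cells, where 11.5% of all genes were.

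The genes most like each claudin in pattern were taken over the 12 named populations, among 9591 genes, by Pearson's r of the log2 level. The populations come from 1 matrix and share its free RNA, so these values describe likeness only. For *Cldn10* they were *Aqp5*, the apical water channel of acinar cells (r 0.96), *Arfgef3* (0.93) and *Pycr1* (0.92). For *Cldn7* they were *Epcam*, an epithelial adhesion protein (0.99), *Ehf*, an epithelial transcription factor (0.99), and *Irx2* (0.98). For *Cldn3* they were *Spint2*, *Nipal2* and *Ovol2* (0.98 each), and for *Cldn4* *Cat*, *Eppk1* and *Dsc2* (0.99, 0.99 and 0.98). *Cldn5* was closest to *Thrsp*, *Ccl21a* and *Car4* (1.00 each), a pattern set by a single population. *Cldn1* had no close partner, with *Adgrg6* at 0.75, *Gdf5* at 0.73 and *Sox10* at 0.72. Between members, r was 0.95 for *Cldn3* and *Cldn7*, 0.84 for *Cldn3* and *Cldn4*, 0.90 for *Cldn4* and *Cldn7*, and -0.32 for *Cldn4* and *Cldn10*.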

How the data were processed

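The authors deposited 1 matrix of raw UMI counts, not normalized. The submitters' processing notes name Cell Ranger 6.0.1, Seurat 4.1.1 and the build mm10. The libraries were 10x Genomics 3′ libraries. All 15707 barcodes were kept, the number of cells given in the methods of the paper. Counts were log-normalized (scale factor 10000) and clustered in Seurat 5.3.0 (R 4.3.3) with 20 principal components at resolution 0.5 on 1997 variable genes, from which 3 claudins had been removed. A cluster was named from at least 3 markers, each with a UMI in at least 25% of cells and a level above all other cells, and stayed unnamed under a median of 500 genes. Scrublet called 0 doublets and was taken as not working, so doublets were not removed. The members, marker lists and comparisons were chosen with earlier results of these data known.

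Levels are summed UMIs per 10000, with exact Poisson 95% intervals; shares have exact Clopper-Pearson 95% intervals, and log2 ratios exact conditional binomial ones. Where a count was 0, 3 counts gave the limit. Genes with at least 20 UMIs over both populations entered the background, called at 2-fold. Likeness used log2(level + 0.1) over genes with at least 200 UMIs. Named were the 6 members, other claudins with at least 20 UMIs in a population, up to 6 tight junction genes and the 3 most alike genes of each member. The interval code was tested on simulated data. Splitting by batch, mouse or gland was not possible. Alternatives were other resolutions (0.3 and 0.8), 10 or 30 principal components, claudins kept, a filter on cells (200 genes or more, mitochondrial UMIs up to 20%), other totals, free RNA taken away and the 10% highest Scrublet scores left out.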

Additional observations from a re-analysis of the deposited data

How the results depend on the processing

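With 1 pooled sample, no replicate could be left out, and the depth of the counts sets every interval. No paired analysis was possible because the matrix does not assign cells to samples. The 6 log2 ratios were recomputed under 12 alternatives, of which the limit to cells with at least 500 genes was chosen after seeing the data. Of 70 values, 52 lay within the 95% interval of the reported one, 18 lay outside it and 0 changed sign. Naming clusters with no limit on genes added acinar-like clusters only, so it could not move *Cldn1* (1.43) or *Cldn5* (6.16). The alternative by Scrublet scores rests on a run that was taken as not working. Leaving the 20 most abundant genes out of the total moved luminal duct-like against serous acinar-like most, to 0.66 for *Cldn3*, 4.39 for *Cldn4*, 1.37 for *Cldn7* and -4.89 for *Cldn10*. With no limit on genes for a name the ratios were 3.49 for *Cldn3*, 5.60 for *Cldn4* and 4.02 for *Cldn7*, since clusters with few genes then joined. With 10 principal components *Cldn3* was 3.56, *Cldn4* 7.10 and *Cldn10* -1.50. *Cldn4* was 7.92 with free RNA taken away, 6.84 as a mean over cells and 7.02 at resolution 0.8. *Cldn10* was -2.52, -2.11 and -2.25 under the same alternatives, -2.33 with 30 principal components and -2.06 with claudins kept among the variable genes. Apart from the total, whose construction shows the cause, the cause of these shifts was not tested. *Cldn1* in basal duct-like cells ranged from 1.14 to 2.20, and its interval included 0 with the abundant genes left out. *Cldn5* in endothelial-like cells ranged from 6.16 to 7.92. No value could be had for *Cldn1* with 10 principal components, where no basal duct-like cluster was named, or for *Cldn5* with free RNA taken away, where nothing was left in the ducts.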

Other observations

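Per 10000 UMIs, the highest *Cldn1* level of all clusters was not epithelial. A myeloid-like cluster of 143 cells led by *Retnla*, *Ccr7* and *Cd209a*, genes of dendritic cells and macrophages, held 16 *Cldn1* UMIs in 12 cells. Its level was 0.332 UMIs per 10000 (0.190 to 0.539), against 0.00900 (2 UMIs) in the largest myeloid-like cluster of 919 cells. In UMIs per cell it held 0.112, less than the 0.178 of the serous acinar-like cluster of 1248 cells. The other 5 claudins of the 143 cells were at 0 to 0.207 per 10000. This cluster was singled out after its values were seen.

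The unnamed clusters with few genes had *Cldn10* as their most abundant member. It was at 2.09, 1.38 and 1.27 UMIs per 10000 in the clusters of 2913, 2230 and 430 cells, at median depths of 2077 to 2284 UMIs. Their *Cldn4* levels were 0.292, 0.331 and 0.128, against 0.0203 in serous acinar-like cells, whose level is pressed down on this scale. The background was 0.316 (0.235 to 0.415) in fibroblast-like, 0.186 in myeloid-like and 0.0792 in lymphoid-like cells. None of these cluster levels was above the fibroblast-like background beyond its interval.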
